A study of Homo sapiens with 115 samples.

Results

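The genes described here are 8 genes of iron handling in HCT116, a human colorectal cancer cell line, taken by name from a table of read counts that lists 43386 entries. They are FTH1 and FTL, which encode the heavy and light chains of ferritin, TFRC, SLC11A2, SLC40A1, NCOA4, IREB2 and ACO1, and all 8 had an entry. Their levels were followed through recovery from X-rays in single cells, 72 labelled as a line with p53 and 43 as a line without it. Each cell was aspirated under a microscope and its RNA was amplified as full-length cDNA and sequenced on its own, without molecular identifiers.

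The cells fell into 5 stages. Cells of day 0 are called [N], pre-budding radiation-tolerant persister (RTP) cells of day 7 [P], budding RTP cells of day 10 [B], newly budded progeny of day 10 [S] and repopulated cells of day 30 [R]. A dose of 8 Gy stands in the label of every cell, [N] included, but the study treats [N] as unirradiated and it is taken so here. Both an intact line, p53+/+, and a line in which the p53 gene had been disrupted by homologous recombination, p53-/-, were sampled, and each line is 1 clone. The p53+/+ line gave 6 [N], 6 [P], 28 [B], 21 [S] and 11 [R] cells, and the p53-/- line gave 7 [N], 11 [P], 8 [B], 9 [S] and 8 [R] cells.

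Between 4056329 and 100173192 counts were recorded per cell, with a median of 34238237, and 5911 to 19258 entries were detected. The epithelial markers EPCAM, KRT8, KRT18 and KRT19 were counted in every cell, CDH1 in all but 4 cells and VIL1 in 1 cell. Of 8 markers of blood, vessel, stromal, liver and red cells, the level summed over the list had a median of 3.79 CPM (counts of a gene per 1000000 counts of the cell) and reached 86.4 CPM, beside a median of 8463 CPM for the epithelial list. PTPRC, which marks leukocytes, had a count in 2 cells and COL1A1, of stromal cells, in 93, at a median of 2.50 CPM. CDKN1A, a target of p53, had a median of 988 CPM (35.6 to 5414) in the p53+/+ line and of 172 CPM (3.42 to 2146) in the p53-/- line, so that single cells of the lines overlapped. The study's text divides the cells between the lines in other numbers than the labels do. The labels were followed, and a few cells may stand in the wrong line of any sum or comparison of lines here. The 50 highest entries of a cell held a median of 22.7% of its counts in [S], 22.2% in [B], 18.9% in [P], 17.1% in [N] and 15.96% in [R].

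Cells take up transferrin-bound iron through the transferrin receptor, TFRC, and the divalent metal transporter SLC11A2 moves it out of the endosome into the cytosol. Iron not used at once is stored in ferritin shells made of heavy and light chains, NCOA4 carries ferritin to the lysosome for breakdown, and SLC40A1, or ferroportin, exports iron. When iron is scarce, the iron regulatory proteins encoded by ACO1 and IREB2 bind a stem-loop, the iron-responsive element. Binding in the 5′ UTR blocks translation, as in the ferritin messages, while binding in the 3′ UTR protects the TFRC message from decay. The messages of ferritin are thus controlled mainly after transcription, so that their level need not follow that of the protein.

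These elements are shown because they tie the storage, uptake and export genes to one pair of regulators. For each of the genes but FTH1, one canonical GENCODE transcript was searched on its sense strand for a C, any 5 bases, the loop CAGTGN and 5 bases that pair with the first 5, G with U allowed. This pattern was found in 258 of 19701 canonical protein-coding transcripts, or 1.31%. In the GRCh38 sequences that follow, written as DNA from 5′ to 3′, the loop is in capitals. FTL and SLC40A1 each held 1 match in the 5′ UTR and TFRC held 4 in the 3′ UTR. The search found no match in the canonical transcripts of SLC11A2, NCOA4, IREB2 and ACO1, which says only that these letters are not there.
FTL 5′ UTR, chr19:48965336-48965362, plus strand: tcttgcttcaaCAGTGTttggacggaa
SLC40A1 5′ UTR, chr2:189580662-189580688, minus strand: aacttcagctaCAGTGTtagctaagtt
TFRC 3′ UTR, first match, chr3:196050980-196051006, minus strand: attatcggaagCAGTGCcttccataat
TFRC 3′ UTR, the second match, chr3:196050576-196050602, minus strand: attatcgggagCAGTGTcttccataat
TFRC 3′ UTR, the third match, chr3:196050511-196050537, minus strand: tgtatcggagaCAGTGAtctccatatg
TFRC 3′ UTR, the fourth match, chr3:196050464-196050490, minus strand: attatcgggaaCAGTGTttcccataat

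Ferritin heavy chain was among the most abundant messages of every cell. FTH1 (chr11:61959718-61967634, minus strand, 4 exons) was among the 10 highest entries in every cell and was the highest in 42 of them. It held 0.469% to 6.50% of a cell's counts, with a median of 1.87%. FTL (chr19:48965309-48966879, plus strand) was less uniform, with a median rank of 10 and ranks that ran from 2 to 783. To compare levels between genes, CPM was divided by the length of the canonical transcript in kb, and on this scale the median over the cells was 15520 CPM per kb for FTH1 and 4504 for FTL. NCOA4 followed at 51.7 and TFRC at 50.9 CPM per kb. The regulators and SLC11A2 were the lowest of the genes that most cells expressed, with medians of 6.07 CPM per kb for ACO1, 4.22 for SLC11A2 and 2.75 for IREB2.

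SLC40A1 was barely detectable. It had a count in 3 cells, with 4 counts in a p53+/+ [B] cell, 9 in a p53-/- [B] cell and 10 in a p53-/- [S] cell, the last being 0.350 CPM. All other cells held no count, and 3 counts, the limit that a count of 0 allows, would have been 0.0299 to 0.740 CPM at their depths. These limits cover counting error only. The entry did not pass the filter on low counts, so 7 of the 8 genes were tested.

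**Figure D1:**
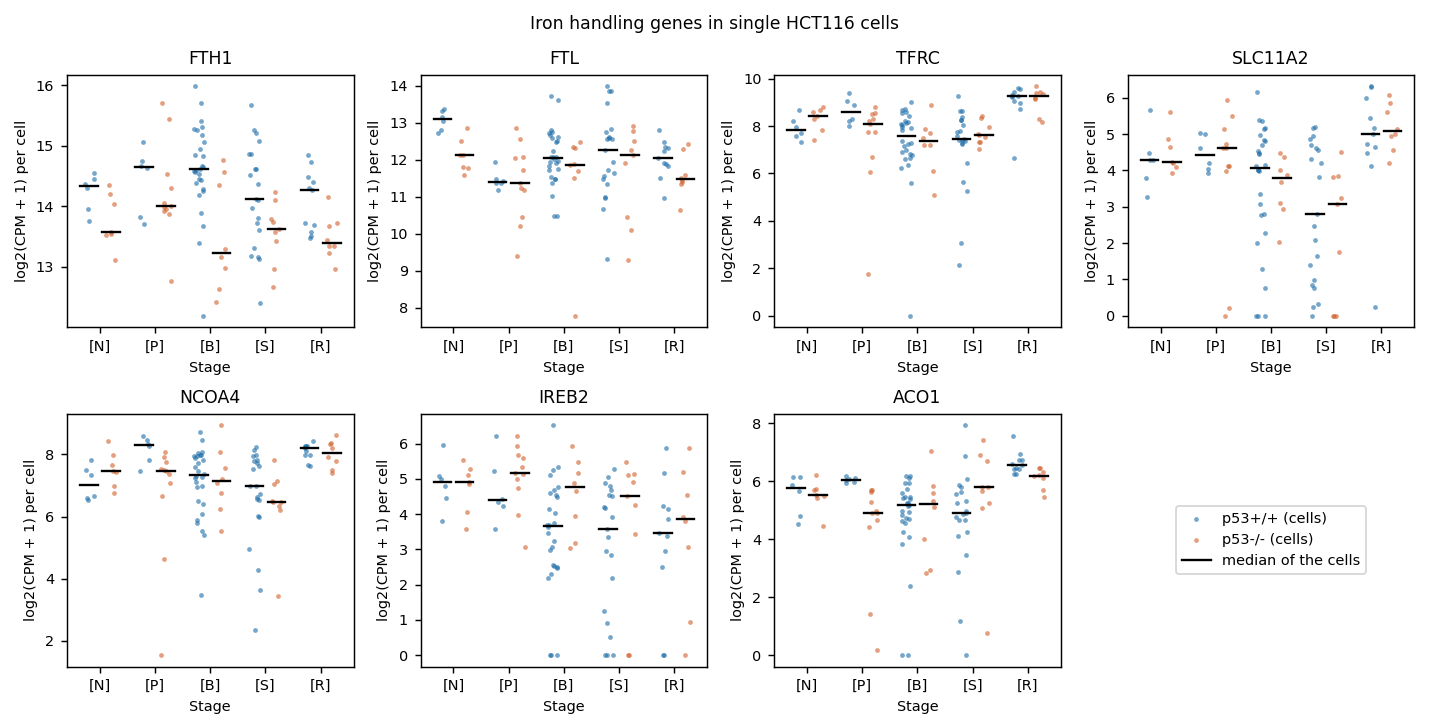
Level of 7 iron handling genes in each cell as log2(CPM + 1), by stage ([N], [P], [B], [S], [R]) and line (blue p53+/+, orange p53-/-), with the median of each group as a black bar. TFRC was highest in [R], with medians of 612 CPM in p53+/+ and 615 CPM in p53-/-, and FTL of the p53+/+ line was lower in all 6 [P] cells than in all 6 [N] cells. The share of all genes that lie apart in this way was not counted.

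Cells of 1 stage and line are not replicates of a condition, so counts were summed over them into 10 sums, and the stages were compared with the 2 lines as replicates. None of the 7 genes tested passed an adjusted p of 0.05 by edgeR in any of the 7 comparisons of stages or between the lines. The share of all 19894 genes tested that edgeR called was itself low. It was 0.0201% for [P] versus [N], 0.658% for [B] versus [N], 0.0704% for [S] versus [N], 0.0201% for [R] against [S], and 0.206% when the lines were compared. For [R] versus [N], [B] versus [P] and [S] versus [B] it was 0%. DESeq2 on the same sums called 2 of the 7 genes for [R] against [S], where it called 7% of all genes, and 1 between the lines, where it called 8.22%. DESeq2 called none of them in the other comparisons, in which it called 4.02% of all genes for [P] versus [N], 10.8% for [B] versus [N], 4.83% for [S] versus [N], 2.02% for [R] versus [N], 0.643% for [B] versus [P] and 0.256% for [S] versus [B].

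Without adjustment, 9 of the 56 values of these 7 genes had p below 0.05 by edgeR. These were 1 gene in [P] versus [N], where 11.9% of all genes did so, 1 in [B] versus [N] (18.5%), 2 in [S] versus [N] (13.3%) and 1 in [R] versus [N] (8.6%). There were 3 in [R] versus [S] (15.1%) and 1 in the comparison of lines (13.9%), and none in [B] versus [P] (5.18%) or [S] versus [B] (4.19%). The counts were thus near the background in all comparisons but [R] versus [S], in which 3 of 7 genes, TFRC, SLC11A2 and NCOA4, were on the higher side. The median log2 fold change of the 7 genes that passed the filter was -0.65 in [B] versus [N], beside 0.20 for all genes, and 0.55 in [R] versus [S], beside -0.08 for all genes. Comparisons with a stage in common share its sums and are not independent of each other.

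**Figure D2:**
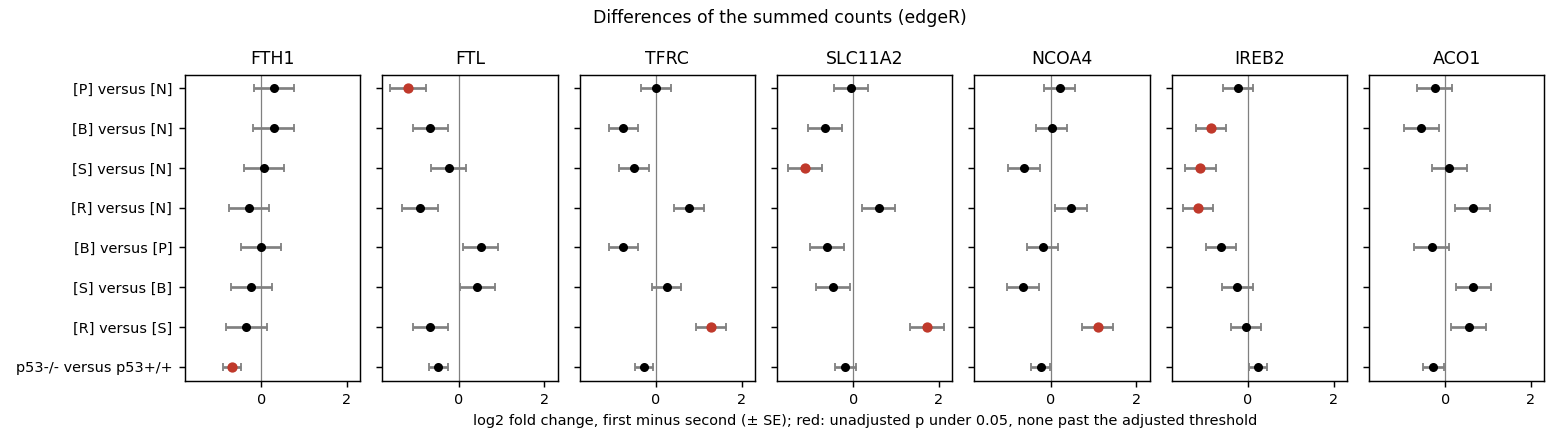
Difference of each gene in the 8 comparisons, as the log2 fold change of the first group minus the second (horizontal axis), with the standard error from edgeR as bars; red points had an unadjusted p below 0.05 and none passed the adjusted threshold. SLC11A2 in [R] versus [S], at 1.72, was the largest of the 56 values.

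Ferritin light chain was lower before budding. In the sums, FTL stood at 8567 CPM in p53+/+ and 4498 CPM in p53-/- for [N], and at 2802 and 3633 CPM for [P]. Both [P] sums lay below both [N] sums. On the log2 scale FTL differed by -1.18 (SE 0.41, unadjusted p = 0.0169 and adjusted p = 0.344 by edgeR), while the median of all genes was 0.15. Among single p53+/+ cells FTL ran from 6725 to 10648 CPM, with a median of 8792, in [N], and from 2336 to 3923, with a median of 2707, in [P], and the 2 groups of 6 cells did not overlap. The share of all genes whose groups lie apart in this way was not counted. Among p53-/- cells it ran from 3064 to 7378 CPM, with a median of 4445, in [N] and from 671 to 7468, with a median of 2649, in [P]. The p53-/- groups did overlap, and 2 of the 11 [P] cells were above the [N] median.

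The size of this FTL difference rested largely on the p53+/+ [N] cells. Without their sum the log2 fold change was -0.54, and without the p53-/- [N] sum it was -1.60. The first part of a cell's title, its name prefix, may mark cells prepared together, and prefix 1115 is the only one that holds both [N] and [P] cells. Within it, FTL of the p53+/+ line was at 2802 CPM over 6 [P] cells against 8446 CPM in 1 [N] cell, and FTL of the p53-/- line was at 3363 CPM over 3 [P] cells against 5125 CPM over 2 [N] cells. The direction was the same in both lines.

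After [P] the FTL sums were at 4848 and 4019 CPM (p53+/+ first) in [B], then 6354 and 4550 CPM among [S], and 4597 and 3278 CPM among [R]. Against [N] the log2 fold change of FTL was -0.66 (SE 0.41) in [B], -0.24 (SE 0.41) in [S] and -0.90 (SE 0.41, unadjusted p = 0.0532 by edgeR) in [R]. These values rested on the p53+/+ [N] sum too, and without it they were 0.005, 0.42 and -0.24. Ordered by the median over both lines, the stages ran [N], [S], [B], [R], [P], from 6725 to 2649 CPM. The ranges of the cells of neighbouring stages in this order overlapped.

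Ferritin heavy chain did not share the low level in [P]. With p53+/+ first, the FTH1 sums were at 19203 and 14342 CPM for [N], 22678 and 23083 for [P], 28350 and 14767 for [B], 21615 and 12415 for [S], and 19135 and 11590 for [R]. Its log2 fold changes against [N] lay between -0.29 and 0.30, each with an SE of 0.47. All of them were smaller than their standard error. No difference of FTH1 between stages was thus detectable in this fit, which has 2 sums a stage and no term for the line. With the line as a block FTH1 was not called either. Within prefix 1115, FTH1 was higher in [P] than in [N] in both lines, by 0.52 and 0.62 on the log2 scale.

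The ratio of the ferritin chains showed this contrast in single cells. FTH1 over FTL, both as CPM per kb, was above 1 in all but 2 cells and had a median of 3.23. In p53+/+ cells it ran from 1.36 to 2.40, with a median of 1.51, in [N] and from 3.68 to 8.99, with a median of 5.82, in [P], with no overlap. In p53-/- cells it ran from 1.82 to 2.78, with a median of 2.41, in [N] and from 2.41 to 16.8, with a median of 5.11, in [P], with overlap. Medians in p53+/+ and p53-/- were 4.48 and 2.53 for [B], 2.88 and 2.24 for [S], and 3.01 and 2.73 for [R]. The 2 cells with a ratio below 1 were an [S] cell of each line. The ratio was looked at after the levels had been seen and carries no test. Since FTL is its denominator, the gap in p53+/+ is not separate from that of FTL. The share of gene pairs whose ratios lie apart in this way was not counted.

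**Figure D3:**
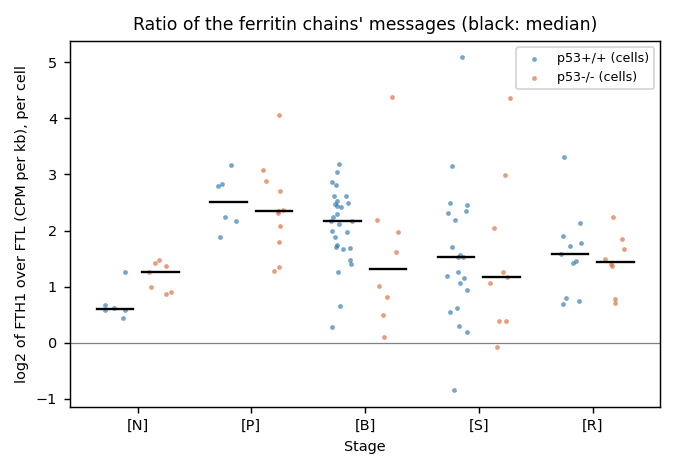
Ratio of FTH1 to FTL in each cell, as log2 of the quotient of CPM per kb of canonical transcript, by stage and line (blue p53+/+, orange p53-/-), with group medians as black bars; 0 marks equal levels. The cells of [N] form the narrowest groups, and the 6 p53+/+ [P] cells lie above all 6 p53+/+ [N] cells. The share of gene pairs whose ratios lie apart in this way was not counted.

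The lines differed most in FTH1. Its sum was lower in p53-/- than in p53+/+ in [N], [B], [S] and [R] and about level in [P], and the median over single cells was lower in p53-/- in 5 of 5 stages. Over all stages the cells had a median of 22513 CPM (4686 to 65012) in p53+/+ and of 13576 CPM (5509 to 53384) in p53-/-, and the lines overlapped widely. FTH1 in p53-/- versus p53+/+ had a log2 fold change of -0.68 (SE 0.22, unadjusted p = 0.0108 and adjusted p = 0.187 by edgeR). DESeq2 gave the same size and called it (adjusted p = 0.0211). With sums split further by name prefix it was -1.16 (SE 0.22, adjusted p = 0.00082 by edgeR), but such sums of 1 line are not separate clones. Between the lines, sums split in this way gave calls for 1275 of 19696 genes, beside 41 of 19894 in the main fit.

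Within single prefixes the direction of FTH1 varied. In 7 pairs of a prefix and a stage that held both lines, FTH1 was lower in p53-/- in 4 and higher in 3, with log2 ratios from -2.02 to 0.28. The largest group, prefix 0109 in [N] with 5 cells of each line, had 12840 CPM in p53-/- and 21050 CPM in p53+/+, and the other pairs held 1 to 6 cells a line.

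FTL was lower in p53-/- as well, with a log2 fold change of -0.47 (SE 0.22, adjusted p = 0.379 by edgeR), and its cell median was lower in 5 of 5 stages. It was called only with sums split by prefix (-0.99, SE 0.29, adjusted p = 0.0309 by edgeR), where 1275 of 19696 genes were called between the lines. In the same 7 pairs of a prefix and a stage FTL was lower in p53-/- in 4 and higher in 3, with log2 ratios from -2.42 to 1.15. In prefix 0109 it was at 4057 CPM in p53-/- and 8632 CPM in p53+/+ [N] cells. The other 5 genes had log2 fold changes between -0.28 and 0.23 between the lines, IREB2 being the one on the higher side in p53-/-. Whether the lines differ in how a gene goes from stage to stage could not be tested with 1 sum per stage and line.

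The transferrin receptor was highest in repopulated cells. TFRC (chr3:196012511-196082153, minus strand) stood at 577 CPM in p53+/+ and 586 CPM in p53-/- for [R]. The sums of [S] were 204 and 219 CPM and those of [B] 202 and 185 CPM. Sums for [N] were 285 and 327 CPM and those for [P] 454 and 219 CPM, so that both [R] sums were above all others. TFRC in [R] versus [S] had a log2 fold change of 1.28 (SE 0.35, unadjusted p = 0.00454 and adjusted p = 0.163 by edgeR), and DESeq2 called it (adjusted p = 0.0156). Over 18 alternative settings the value lay between 1.25 and 1.46, with adjusted p from 0.0156 to 0.481.

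Single cells showed the same order. In p53+/+, TFRC ran from 99.2 to 773 CPM, with a median of 612, in [R] and from 3.43 to 607, with a median of 175, in [S]. In p53-/- it ran from 290 to 823 CPM, with a median of 615, in [R] and from 130 to 341, with a median of 193, in [S]. Of the [R] cells, 10 of 11 and 8 of 8 were above the [S] median of their line, although the groups overlapped in both lines. Against [N] the log2 fold change of TFRC in [R] was 0.77 (SE 0.35, unadjusted p = 0.0515 by edgeR), in [B] -0.76 (SE 0.35, unadjusted p = 0.0542) and in [S] -0.51 (SE 0.35). The stage medians of TFRC over both lines ran [R], [P], [N], [S], [B], from 612 to 173 CPM.

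From [N] to [P] the cell medians of TFRC had opposite directions in the lines, a difference that was not tested. In p53+/+ all 6 [P] cells were above the [N] median, with medians of 391 and 227 CPM, whereas in p53-/- 3 of 11 were, with medians of 269 and 343 CPM. From [N] to [P] the sums gave 0.00 (SE 0.35), with 0.49 without the p53-/- [P] sum and -0.64 without the p53+/+ [P] sum. Within prefix 1115 TFRC was nearly level, at 454 against 410 CPM in p53+/+ and 264 against 257 CPM in p53-/-. In [B] versus [P] the sums gave -0.76 (SE 0.35), but in the 2 prefixes that held both stages, each with 1 [B] and 4 [P] cells of the p53-/- line, TFRC was higher in [B], by 0.53 and 1.57 on the log2 scale. The direction of the TFRC sums from [P] to [B] thus did not hold within these 2 prefixes of the p53-/- line. No prefix held p53+/+ cells of both stages, so the p53+/+ sums, 202 CPM in [B] and 454 CPM in [P], could not be checked in this way. In prefix 1206 the [B] cell is the one flagged below for its low FTL, and the median log2 ratio of all genes was -0.66.

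SLC11A2, the divalent metal transporter (chr12:50979401-51028566, minus strand), was lowest in [S] and highest in [R]. Its sums were 12.1 and 7.21 CPM in [S], p53+/+ first, and 35 and 38.4 CPM in [R]. For [N] they were 18 and 25.9 CPM, for [P] 22.3 and 24.5 CPM and for [B] 16.9 and 12.7 CPM. All [R] sums exceeded those of the other stages. SLC11A2 in [R] versus [S] had a log2 fold change of 1.72 (SE 0.40, unadjusted p = 0.00168 and adjusted p = 0.121 by edgeR), while the median of all genes was -0.08. DESeq2 called it (adjusted p = 0.00174), and edgeR with no filter on low counts did so too (1.68, adjusted p = 0.0223). Over all alternative settings its adjusted p ran up to 0.937.

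In [S] versus [N] SLC11A2 had a log2 fold change of -1.13 (SE 0.40, unadjusted p = 0.0176 and adjusted p = 0.299 by edgeR). Cell medians in p53+/+ and p53-/- were 18.5 and 17.9 CPM in [N], 5.94 and 7.46 in [S], and 30.8 and 32.7 in [R]. SLC11A2 had no count in 8 cells, of which 4 were [S] cells, 3 [B] cells and 1 a [P] cell. After every cell was thinned to the smallest total of 4056329 counts, it had no count in 11 cells. Entries detected per cell had medians of 13281 in [S], 15742 in [B] and 13754 in [R]. The 8 cells without a count of SLC11A2 had 5911 to 11479 entries detected, whereas the fewest in an [R] cell were 12361. The part of entry detection in the SLC11A2 differences was not tested.

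NCOA4, the ferritin receptor of autophagy (chr10:46005088-46030623, minus strand), had sums of 130 and 94.95 CPM in [S], p53+/+ first, and of 276 and 273 CPM in [R]. The other sums were 138 and 218 CPM for [N], 294 and 158 CPM for [P], and 188 and 199.7 CPM for [B]. The [S] sums were the lowest of each line. NCOA4 in [R] versus [S] had a log2 fold change of 1.09 (SE 0.37, unadjusted p = 0.0143 and adjusted p = 0.221 by edgeR), and it was not called by DESeq2 (adjusted p = 0.0632). All 11 and all 8 [R] cells were above the [S] median of their line, with [R] medians of 292 and 266 CPM against 126 and 87.5 CPM. In [P], NCOA4 of the p53+/+ line had a cell median of 315 CPM against 131 CPM in [N], and that of the p53-/- line 174 against 177 CPM.

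TFRC, SLC11A2 and NCOA4 were thus the genes with the largest differences from [S] to [R]. No name prefix holds [R] cells and cells of another stage, so stage and preparation cannot be told apart for [R]. The share of counts in the 50 highest entries was 13.6% to 19.2% in [R] and 14.1% to 48.2% in [S]. Over all cells this share had a Spearman correlation of -0.51 with TFRC, -0.42 with SLC11A2, -0.51 with NCOA4 and -0.61 with ACO1. Its part in the [R] versus [S] differences was not tested.

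The regulators went different ways. ACO1 (chr9:32384603-32454769, plus strand), which encodes the protein that is an aconitase with an iron-sulphur cluster and an RNA-binding regulator without one, had its highest cell medians in [R], at 92.6 CPM in p53+/+ and 72.3 CPM in p53-/-. The sums of ACO1 were 107.2 and 70.8 CPM for [R], p53+/+ first, and 38.3 and 71.3 CPM for [S]. For [N] they were 52.9 and 49.4 CPM, for [P] 64.6 and 30.6 CPM and for [B] 36.7 and 38.04 CPM. ACO1 in [R] versus [N] had a log2 fold change of 0.64 (SE 0.41, unadjusted p = 0.148 by edgeR). In p53+/+ the ACO1 level of the 11 [R] cells, 74.9 to 190 CPM, lay above that of all 6 [N] cells, 21.8 to 70.6 CPM, whereas in p53-/- the ranges of 43.4 to 87.5 and 20.8 to 73.4 CPM overlapped. For how many of all genes the p53+/+ groups lie apart was not counted.

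IREB2 (chr15:78437431-78501453, plus strand), which encodes the regulator that is removed by degradation when iron is plentiful, was lower than in [N] from budding on. Its sums were 37.5 and 27.5 CPM in [N] and 26.2 and 35.3 CPM in [P], p53+/+ first. For [B] they were 14.7 and 24.7 CPM, for [S] 11.8 and 18.3 CPM and for [R] 14.6 and 17.98 CPM. Every sum of these later 3 stages was below both [N] sums. Against [N] IREB2 had a log2 fold change of -0.86 (SE 0.36, unadjusted p = 0.0367 and adjusted p = 0.236 by edgeR) in [B]. It was -1.11 (SE 0.36, unadjusted p = 0.0114 and adjusted p = 0.274 by edgeR) in [S] and -1.16 (SE 0.36, unadjusted p = 0.00895 and adjusted p = 0.563 by edgeR) in [R]. These 3 values share the [N] sums, and 1 cell gave 58.1% of the IREB2 counts of the p53+/+ [N] sum. Without that sum they were -0.50, -0.77 and -0.81.

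Among single p53+/+ cells IREB2 had medians of 28.9 CPM for [N], 19.96 for [P], 11.6 for [B], 10.9 for [S] and 9.97 for [R]. Among p53-/- cells they were 29.3, 34.8, 26.4, 21.7 and 13.6 CPM in the same order. All cells of [N] and [P] had a count of IREB2, whereas 3 [B], 5 [S] and 3 [R] cells had none. The cell median of IREB2 was higher in p53-/- than in p53+/+ in 5 of 5 stages, and the log2 fold change between the lines was 0.23 (SE 0.21, unadjusted p = 0.311 by edgeR).

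Budding cells and their progeny could be set against each other within 11 pairs of a prefix and a line that held both. FTL was higher in [S] in 7 of these pairs and lower in 4, TFRC and NCOA4 were higher in 6 and lower in 5, and FTH1, SLC11A2, IREB2 and ACO1 were higher in 5 and lower in 6. The median log2 ratio lay between -0.59 for IREB2 and 0.37 for FTL. Single pairs ran from -4.83 for ACO1 to 2.49 for SLC11A2, and 4 of the 11 pairs had 1 cell in each stage, so they carry no test. No gene had one direction in all pairs.

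**Figure D4:**
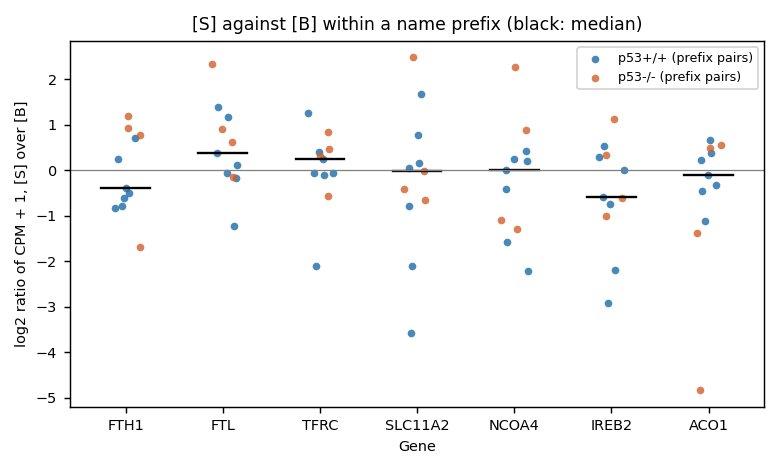
Log2 ratio of CPM + 1 in [S] over [B] (vertical axis) for 7 genes in the 11 pairs of a name prefix and a line (blue p53+/+, orange p53-/-) that held cells of both stages, with the median of each gene as a black bar. The points of every gene lie on both sides of 0.

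Some cells lacked several of these messages at once. A p53+/+ [B] cell with 4056329 counts and 5911 entries detected, the lowest of both, had no count of TFRC, SLC11A2, IREB2 or ACO1. Another p53+/+ [B] cell, with 10033400 counts, had none of SLC11A2, IREB2 or ACO1. In contrast, FTH1, FTL and NCOA4 had a count in every cell. The 3 [R] cells without IREB2 had 36301452 to 67545766 counts. The part of depth in these zeros was not tested.

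Over all cells the ferritin chains went together, and TFRC, SLC11A2, IREB2 and ACO1 went against both. Spearman correlations of log2(CPM + 1) are given as a description, since the cells share stages, prefixes and libraries of like depth and composition. FTH1 with FTL had 0.38 over all cells and a median of 0.51 within the 10 groups of a stage and line, above 0 in 9 of them. FTH1 with TFRC had -0.33 over all cells and a median of -0.41 within groups, and FTL with TFRC had -0.42 and -0.27. Single groups ran from -0.89 to 0.89 for FTH1 with TFRC and from -0.86 to 0.54 for FTL with TFRC. Over all cells FTH1 had -0.30 with SLC11A2, -0.31 with IREB2, -0.25 with ACO1 and 0.02 with NCOA4. FTL had -0.34 with SLC11A2, -0.22 with ACO1 and -0.26 with NCOA4. FTL with IREB2 had -0.40 over all cells and a median of -0.63 within groups. The ferritin genes and the others also had unlike relations to library composition, since FTH1 had 0.33 with the share of the 50 highest entries. TFRC with SLC11A2 had 0.59 over all cells but a median of 0.19 within groups.

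Of 6606 genes compared, those most like FTH1 over all cells were GABARAP (0.66), NAXE (0.65), AK1 (0.63), PHPT1 (0.63) and ATP6V0E1 (0.62), by Spearman correlation. Those most like FTL were OAZ1 (0.65), NDUFS7 (0.64), GPX4 (0.64), PRDX1 (0.62) and NDUFB10 (0.58). TFRC was most like SLC16A1, FAR1, CANX, TMEM30A and SF3B1, all between 0.73 and 0.74. Within the groups the medians were lower for TFRC, from 0.26 with SF3B1 to 0.60 with CANX, and for FTL they ran from 0.56 with GPX4 to 0.62 with PRDX1. For FTH1 they ran from 0.42 with ATP6V0E1 to 0.56 with GABARAP. No gene among these 15 was one of the 8 genes described here.

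The 8 genes belong to a wider set, and 46 other genes of iron uptake, storage, export, regulation, haem and iron-sulphur clusters were read from the same fits. Of them 42 were tested. STEAP4, FTMT, CP and HAMP, counted in 7, 2, 8 and 5 cells, were not. None of the 42 passed by edgeR in any comparison. At an unadjusted p below 0.05, 48 of the 336 values did, or 14.3%, beside 11.3% of the values of all genes. DESeq2 called 24, or 7.14%, beside 4.73% for all genes. These include HEPH in [P], [B], [S] and [R] against [N], and TMPRSS6 in [B] and [R] against [N]. Both genes had sums of 0 CPM in [N], so these calls rest on values near the floor. The median log2 fold change of the 42 genes lay between -0.29 and 0.34 over the 8 comparisons, beside medians of all genes from -0.08 to 0.20.

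HMOX1, haem oxygenase, which frees iron from haem, had sums in budding cells above those of [N], [P] and [R]. They were 127 and 159.6 CPM in [B] and 138 and 68.3 CPM in [S], p53+/+ first, against 30.99 and 45.5 CPM for [N], 52.3 and 25.1 CPM for [P], and 77.4 and 59.4 CPM for [R]. In p53+/+ the [S] sum was above the [B] sum, and in p53-/- it was below it. HMOX1 had a log2 fold change of 1.79 (SE 0.46, adjusted p = 0.0957 by edgeR) in [B] versus [N], 1.49 (SE 0.46, adjusted p = 0.274) in [S] versus [N] and 1.91 (SE 0.46, adjusted p = 0.59) in [B] versus [P]. DESeq2 called all 3, with adjusted p of 0.00402, 0.0425 and 0.0147.

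CISD2, an iron-sulphur protein of the outer mitochondrial membrane and endoplasmic reticulum, had lower sums than in [N] in [B] (log2 fold change -1.14, SE 0.28, adjusted p = 0.0859 by edgeR) and in [S] (-0.97, SE 0.28, adjusted p = 0.25). DESeq2 called both, with adjusted p of 0.00527 and 0.0365. In [B] versus [P] CISD2 had -0.68 (SE 0.27, adjusted p = 0.891). SLC25A28, a mitochondrial iron importer, had sums of 31.5 and 49.0 CPM in [P] against 9.41 and 12.4 CPM in [N] (1.74, SE 0.45, adjusted p = 0.284 by edgeR and 0.0111 by DESeq2). CYBRD1, a ferric reductase, had 1.38 (SE 0.49, adjusted p = 0.347) in the same comparison. HIF1A, a factor of the response to low oxygen, had -0.97 (SE 0.30, adjusted p = 0.274) in [S] versus [N] and 1.37 (SE 0.31, adjusted p = 0.113) in [R] versus [S], of which DESeq2 called the second (adjusted p = 0.00199).

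PCBP2, an iron chaperone and RNA-binding protein, had the lowest sums in [R], with a log2 fold change of -1.44 (SE 0.28, adjusted p = 0.098 by edgeR) against [S] and -1.27 (SE 0.28, adjusted p = 0.563) against [N]. DESeq2 called both, with adjusted p of 0.000526 and 0.00751. SLC39A8, a metal importer, had 1.59 (SE 0.42, adjusted p = 0.151 by edgeR and 0.00934 by DESeq2) in [R] versus [S] and -1.05 (SE 0.41, adjusted p = 0.881) in [B] versus [P], and EPAS1 had 0.96 (SE 0.39, adjusted p = 0.563) in [R] versus [N]. In [S] versus [B] the smallest p were those of ABCB8 (0.89, SE 0.36), SLC48A1 (-0.70, SE 0.30) and TF, with an adjusted p of 1 for all 3. TF, or transferrin, was at 0.154 and 4.47 CPM in [B] and at 0.00535 and 0.0261 CPM in [S]. TMPRSS6, a regulator of hepcidin, had no count in [N] and 0.308 and 0.699 CPM in [B], 0.116 and 0.148 in [P], and 0.148 and 0.482 in [R]. Both are too low for a fold change to be read.

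Between the lines the smallest p were those of ISCU, a scaffold for iron-sulphur cluster assembly, FECH, which puts iron into haem, and STEAP3, an endosomal ferrireductase. All 3 were on the lower side in p53-/-, with log2 fold changes of -0.81 (SE 0.16, adjusted p = 0.0742 by edgeR), -0.80 (SE 0.19, adjusted p = 0.107) and -0.66 (SE 0.19, adjusted p = 0.164), and in each of the 5 stages their sum was lower in p53-/-. DESeq2 called all 3, with adjusted p of 0.000545, 0.00554 and 0.0341. In all it called 5 of the 42 genes between the lines, all of them lower in p53-/-, beside 8.22% of all genes in either direction.

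The entries of FTH1 and TFRC share exons with other genes. BEST1 overlaps FTH1 and a long noncoding RNA overlaps TFRC, both on the opposite strand, and reads of overlapping genes cannot be told apart without strand. Ferritin also has processed pseudogenes, whose near-identical reads are uncertain. The 3 entries of ferritin pseudogenes in the table held 10603 counts, or 0.0122% of the counts of FTH1, and adding them changed no call.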

How the data were processed

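Single HCT116 cells, 72 p53+/+ and 43 p53-/-, were sequenced one by one. The study's methods and the submitters' processing notes name fastp for trimming, HISAT2 2.0 with GRCh38 for alignment and StringTie for expression. Which tool made the deposited table is not given in the sources used here. The authors deposited raw whole-number counts per gene and cell, with no depth correction.

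The 8 genes and the lists of other genes were chosen with earlier results of these data known. Named genes are the 8 genes, of the other iron genes those called or otherwise up to 3 with the smallest unadjusted p in a comparison, and for FTH1, FTL and TFRC the 5 genes with the highest Spearman correlation over the cells, among genes counted in at least 58 cells at a mean of at least 20 CPM. HEPH is named in addition, for its calls by DESeq2.

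The counts of a stage and line were added up over its cells, which gave 10 sums of 146141551 to 891803993 counts. The filter was edgeR's filterByExpr (minimum count 10) and a count in at least 12 cells. R 4.3.3 and edgeR 4.0.16 were used for a robust quasi-likelihood fit with TMM scaling, and a gene was called where its p, adjusted by Benjamini-Hochberg over all genes, was under 0.05. Lines were compared with stage as a covariate. The common dispersion was 0.564. DESeq2 1.42.0 was an alternative. Scripts were tested on simulated data. Equal replicate numbers stand for 1 line and so pair the sums. Their deviations from the stage means correlated at 0.074 to 0.216 over all 10 pairs of stages. The main design has no term for the line. No label says that cells came from separate cultures, so p-values of the stage comparisons measure the spread between 2 lines of 1 clone each. Those of the comparison of lines measure how the difference between the lines varies from stage to stage, and not a spread between clones. Reads without molecular identifiers are not independent molecules. The message of the disrupted gene is not reported here. Levels per cell are CPM of the cell's total. Transcripts, exons and lengths were taken from GENCODE 44. Alternatives were the line as a block, DESeq2, library size only, no filter, cells thinned to 15435056 counts (12 shallower cells left out), sums per prefix, 4 cells left out that the paper's tables do not hold, pseudogene counts added, and each sum left out in turn.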

Additional observations from a re-analysis of the deposited data

Results flagged for a closer look

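In groups of 4 to 10 cells, the gap of the highest or lowest cell to its neighbour was set against the range of the group in log2(CPM + 1), by Dixon's 95% limits. Of 44 groups of a gene, stage and line with any spread, 5 were past the limit. Among them are the groups of SLC40A1, in which only 1 cell had a count. There the gap is the whole range, so passing the limit was fixed in advance. For the other groups chance alone gives about 1 in 20.

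FTL was at 219 CPM in cell 3 of p53-/- [B], while the other 7 cells of the group had 2909 to 5718 CPM. This cell had 30077227 counts and 11265 entries detected, the fewest of its group. It is the only p53-/- [B] cell of its prefix that could be set against [P] cells, and it carries the -3.97 of FTL in [B] versus [P] within prefix 1206. NCOA4 was at 9.86 CPM in cell 9 of p53-/- [S], against 72.7 to 223 CPM in the others, and this cell had 8170 entries detected and no count of SLC11A2 or IREB2. ACO1 was at 0.691 CPM in cell 1 of p53-/- [S], against 32.4 to 171 CPM. SLC40A1 was past the limit in cell 8 of p53-/- [B] at 0.305 CPM and in cell 2 of p53-/- [S] at 0.350 CPM, because all other cells of these groups were at 0.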

How the results depend on the processing

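By edgeR, 0 of the 7 genes tested was called in each of the 8 comparisons, and leaving out each sum in turn gave 0 to 0. Without either [N] sum edgeR called 0 of all genes in every comparison of stages. In [R] versus [S] it called 0 of all genes whichever sum was left out. The 0 of the 7 genes says nothing about them there. With the cell line as a replicate block, 0 of the 7 genes was called in all 7 comparisons of stages, and the block changed no call of the 42 other iron genes (0). DESeq2 called 2 genes for [R] against [S] (TFRC, log2 fold change 1.29, and SLC11A2, 1.74) and 1 between the lines (FTH1, -0.68), and 24 values of the other iron genes (7.14%, beside 4.73% over all genes). Among the latter are the calls of HEPH and TMPRSS6 against [N], where their sums were 0. With no filter on low counts edgeR called 1 gene in [R] versus [S] (SLC11A2, 1.68) and 21 values of the other iron genes (5.71%, beside 1.4% over all genes). With sums per name prefix it called 2 genes between the lines (FTH1, -1.16, and FTL, -0.99), where it called 1275 of all 19696 genes. In this setting it also called 5 values of the other iron genes (1.49%, beside 0.994% over all genes). All other settings gave 0. Over all genes, edgeR called 131 for [B] and 14 for [S] against [N], 4 for [R] against [S] and 41 between the lines. With the block the first 3 were 677, 31 and 76. With DESeq2 all 4 were 2153, 960, 1393 and 1635, with no filter 1276, 524, 701 and 412, and without the p53+/+ [N] sum 0, 0, 0 and 73. The causes were not tested.

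Of 1001 values of a gene, comparison and alternative setting, 52 had the opposite sign to the main value, none of them called in either. In 3 of these the main value exceeded its standard error: FTL in [B] versus [N], -0.66 and 0.005 without the p53+/+ [N] sum, and, with sums per prefix, ACO1 in [S] versus [B] (0.66 and -0.13) and between the lines (-0.28 and 0.29). Where a sum is left out, the lone sum of its stage is assumed to vary like the others, and line and stage are mixed. Scaling by library size alone moved the median of all genes by -0.13 to 0.18, and in [R] versus [S], where it moved by 0.18, TFRC had 1.46. SLC40A1 had a count in 1 cell, in place of 3, after thinning to the smallest total. With 2 sums a stage and SE of 0.35 to 0.47, differences of the size seen here are at the limit of detection.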
